A study of Drosophila melanogaster with 4 samples.

Results

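The longest stretches of the fly chromosome arms in which no enrichment of JHDM1 was called are described here. They were taken from the deposited list of enriched regions, called clusters, of the replicate set, referred to as the whole-series list. Along arms 2L, 2R, 3L, 3R and X, a gap was the sequence between the end of a cluster and the start of the next cluster on the same arm, and gaps of 30 kb or more were kept. This gave 823 gaps among 7524 stretches between clusters on these arms (10.9% of them), and 7992 stretches in the whole list. The gaps were chosen by the positions of the clusters, so their number, length and position are given as a description, with no test. They are free of clusters in the whole-series list by definition. In both replicate lists as well, 113 of them (13.7%) were free of clusters, against 17.5% of the stretches under 30 kb. Most replicate clusters that touched a gap crossed its edge, and 98.7% of the gap length was empty in both replicate lists.

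The libraries came from head nuclei of mixed adult flies of the wild-type strain Oregon-R, and there was no other genotype or treatment. Chromatin fixed with formaldehyde was precipitated with the antibody JHDM1 Q2634 in 2 ChIP libraries, and each had an input library with the same replicate number. Flies came from population cages. The labels do not state that the replicates were separate populations, and their spread may be technical. Head nuclei are a mixture of many cell types, and a called region is an average over them. The files hold called regions and no read counts, so the depth is unknown here and a gap means that no region was called, not that no protein was bound.

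JHDM1 is a synonym of the gene Kdm2, a JmjC-domain histone demethylase. In flies it is known as a component of the dRAF complex, which contains Polycomb group proteins and in which removal of methyl groups from histone H3 is coupled to ubiquitylation of histone H2A. Fly chromosome arms alternate between gene-dense stretches of active chromatin and long domains of repressed chromatin that carry few housekeeping genes. Gene content of the gaps was not examined, because the coordinates are those of FlyBase release 5 and the only gene table at hand was on Release 6.

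The gaps were few in number but held a large part of the arms. Together they spanned 50.4 Mb, or 42.4% of the 119 Mb of the 5 arms and 56.6% of all sequence outside clusters. Clusters took up 25.0% of the arms and the stretches under 30 kb 32.5%. The median gap was 49.9 kb long, against a median of 3.56 kb over all stretches between clusters. The middle 50% of the gaps ran from 38.2 to 70.8 kb. Of the 823 gaps, 412 were shorter than 50 kb, 306 were from 50 to 100 kb and 105 were 100 kb or longer. The last group alone held 13.9 Mb. Lengths ran through the 30 kb threshold without a break. The 5 stretches just under it were 29903 to 29951 bp long and the 5 just over it 30031 to 30137 bp.

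Gaps were least extensive on 2R and most extensive on the X. Arm 2R had 130 gaps that took up 35.1% of its length, and the X had 156 that took up 47.0%. The other arms lay between them, with 171 gaps and 44.5% on 2L, 174 and 42.1% on 3L, and 192 and 42.6% on 3R. The number per megabase varied little, from 6.15 on 2R to 7.43 on 2L, with 6.96 on the X. The X differed more in length, with a median of 55.1 kb against 49.0 kb over the autosomal arms, and an upper quartile of 83.5 kb against 68.2 kb. Of the 5 gaps of 200 kb or more, 3 were on the X, 1 on 2R and 1 on 3R.

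**Figure D1:**
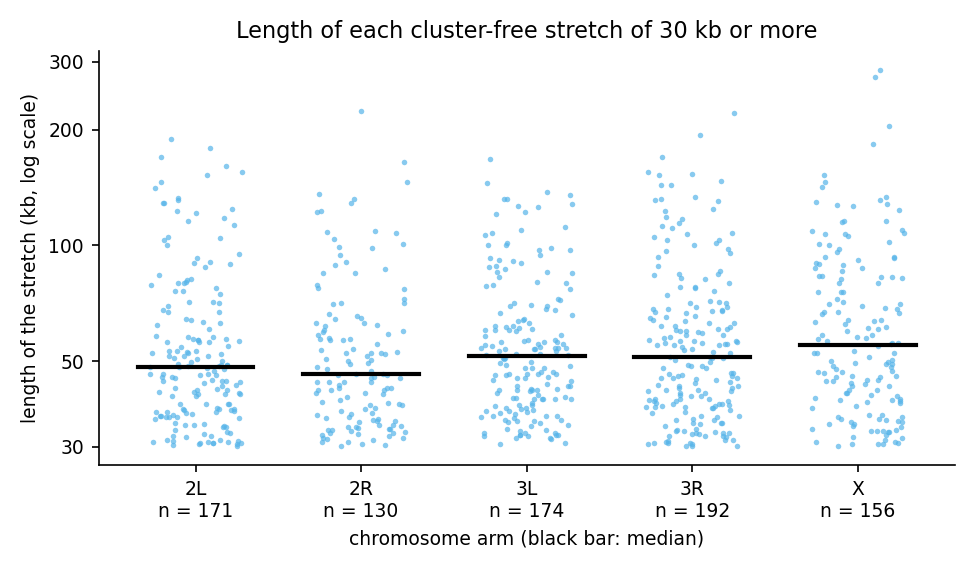
Length in kb on a log axis of each of the 823 gaps (points, spread sideways at random) by chromosome arm, with the median of each arm as a black bar. The medians run from 46.2 kb on 2R to 55.1 kb on the X, and the longest points are on the X.

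Arm 2R also had the smallest share in gaps when the same rule was applied to each replicate list, while the order of the other arms varied. In replicate 1, 879 gaps (12.0% of the stretches of that list) took up 45.4% of the 5 arms, and in replicate 2, 893 gaps (13.2%) took up 49.5%. The mean number was 886 ± 9.90 (SD, n = 2). The share on 2R was 36.9% in replicate 1 and 39.2% in replicate 2. On 2L it was 49.5% and 50.6%. On 3L it was 44.7% and 49.6%, and on 3R 46.7% and 47.3%. On the X it was 48.2% in replicate 1 and 60.5% in replicate 2, so that the X ranked below 2L in replicate 1 and above it in replicate 2. The autosomal arms together differed less between the replicates, at 44.7% and 46.9%. The replicate 2 list covered less of the X with clusters, 13.4% against 21.2% in replicate 1. The autosomal arms were covered at 21.7% and 21.8%. The part of the lower X coverage in the longer gaps of the X was not tested. An exact two-sided permutation test that flips the sign of the difference in each of 2 replicates cannot give a p below 0.5, and no test over samples was made.

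The replicates left largely the same sequence without clusters. Gaps of 30 kb or more in both replicate lists shared 49.4 Mb, which was 91.5% of the gap length in replicate 1 and 84.0% of that in replicate 2. On the X these shares were 97.0% and 77.3%. Of the length of the 823 whole-series gaps, 95.9% lay in gaps of the replicate 1 list and 94.97% in gaps of the replicate 2 list. The whole-series list comes from the same libraries, so these shares are no independent evidence for the gaps.

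Gaps were found along the whole of each arm. All 117 full 1 Mb bins held at least part of a gap, and the share of a bin in gaps ranged from 13.8 to 82.9% with a median of 38.7%. In 31 bins it was 50% or more. These were 10 of the 22 bins of the X, 9 of 27 on 3R, 5 of 23 on 2L, 4 of 24 on 3L and 3 of 21 on 2R. The bin with the largest share was on 3L from 23 to 24 Mb, at 82.9%, where clusters of replicate 1 covered 6.49% and those of replicate 2 4.91%. It was followed by 2L from 17 to 18 Mb at 69.5% and the X from 4 to 5 Mb at 69.2%. The 2 bins under 20% were both on 2R, from 3 to 4 Mb at 13.8% and from 5 to 6 Mb at 19.1%.

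**Figure D2:**
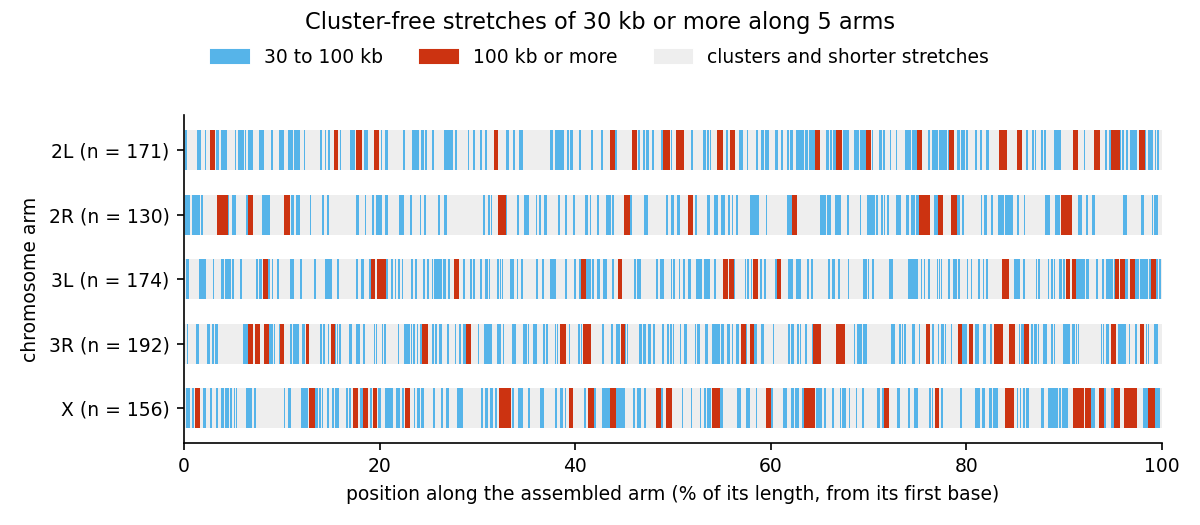
Position of the 823 gaps along each arm, in percent of the assembled arm from its first base. Gaps of 30 to 100 kb are blue, the 105 gaps of 100 kb or more are red, and grey is everything else. Gaps crowd at the right end of 2L, 3L and X, and a wide grey part without them lies near 3% to 6% of 3R.

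Gaps were more extensive toward the centromere on 4 of the 5 arms. The centromere lies beyond the right end of 2L, 3L and X and beyond the left end of 2R and 3R. The 1 Mb nearest to it was in gaps for 89.3% on 3L, 72.4% on X, 65.6% on 2L and 56.5% on 2R. Away from the outer 1 Mb at both ends, the same arms stood at 40.4%, 45.4%, 43.5% and 34.4%. On 3R gaps were less extensive there, at 32.9%, than between the ends, at 43.0%. The telomeric 1 Mb ranged from 27.4% on 2R to 53.2% on the X. Sequence beyond the outermost cluster is bounded by only 1 cluster and was not counted. It was longest at the telomeric end of 3L, at 51.4 kb, and the centromeric end of 2L, at 42.5 kb. The part of each arm end that can be mapped uniquely is not known here.

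The longest gap lay near the centromeric end of the X, from 21558117 to 21844293, and was 286 kb long. It held no cluster of either replicate. The empty stretch around it was longer still in the replicate lists, 304 kb in replicate 1 and 342 kb in replicate 2. The cluster on its left, 1033 bp long with a score of 2.65, had no counterpart in either replicate list. The cluster on its right, of 6577 bp and score 1.35, was found in both. The second longest gap was also on the X, from 7224311 to 7497809, at 273 kb. Replicate clusters reached over its edges for 315 bp in replicate 1 and 1065 bp in replicate 2, and no cluster lay inside. Both of its flanking clusters were weak, with scores of 0.536 and 0.61, and each was found in only 1 of the replicates. These scores are the authors' own, in a unit not given in the sources used here, and are compared only within a list.

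The other gaps over 200 kb differed in how the replicates filled them. On 2R the longest gap ran from 718405 to 942239 (224 kb). A replicate 1 cluster of 1717 bp inside it left at most 158 kb empty, and replicate 2 covered 1619 bp at its edge. On 3R the gap from 17960919 to 18181377 (220 kb) was empty in replicate 1 and held a cluster of 1443 bp in replicate 2. Its flanks contrasted, with a compact cluster of 2615 bp and score 2.10 on the left and a long one of 15457 bp and score 0.945 on the right. On the X from 18825543 to 19029553 (204 kb) only 76 bp were covered, at the edge and in replicate 1. There the flanking clusters had no counterpart in replicate 2, in which the empty stretch measured 288 kb.

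The next in length were on 3R from 23537077 to 23730369 (193 kb), with 220 bp covered by replicate 2 at the edges and none by replicate 1. On 2L from 21829495 to 22018369 (189 kb), replicate 2 had 3 clusters inside that covered 4540 bp and cut its longest empty part to 95.4 kb, while replicate 1 covered 421 bp at the edges. The X from 12099317 to 12282409 (183 kb) and 2L from 11583327 to 11762671 (179 kb) were empty in replicate 2 and covered by replicate 1 for 630 and 8 bp. On 3R from 10731187 to 10901057 (170 kb), replicate 1 covered 3061 bp and left at most 79.8 kb empty, and replicate 2 covered none. On 2R the second longest gap, from 6787093 to 6952105 (165 kb), was empty in both replicate lists, and both flanks were found in both. On 3L the longest gaps were from 20535831 to 20703549 (168 kb), with 115 and 154 bp covered at its edges, and from 4829855 to 4974699 (145 kb), with a cluster inside in each replicate and 1725 and 1688 bp covered.

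Over all 823 gaps, the replicate lists intruded little, and by number of clusters mostly at the edges. Replicate 1 clusters covered 0.636% of the gap length and replicate 2 clusters 0.658%, a mean of 0.647% ± 0.016 (SD, n = 2). In stretches under 30 kb, the covered shares were 3.68% and 3.12% (3.40% ± 0.39), and over the whole arms 21.7% and 20.1%. Shorter stretches have more edges per base pair, and most of the clusters that intruded crossed an edge. That holds for the number of clusters, and the covered base pairs were not split in this way. The gaps also leave out, by the rule, the clusters of a list made from the same libraries. Neither comparison is thus like for like. Strictly empty gaps were nevertheless a minority in replicate 1. No cluster touched 290 gaps (35.2%) in replicate 1, 453 (55.0%) in replicate 2 and 113 (13.7%) in either. Of the stretches under 30 kb, 43.9%, 59.0% and 17.5% were empty by the same measure, so being empty was not more frequent among the long gaps. A long gap offers more sequence in which a cluster can fall, and these shares are not adjusted for length.

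Most replicate clusters that touched a gap crossed its edge rather than lying inside it. Counted once for each gap it reached, 580 clusters of replicate 1 crossed an edge and 138 lay wholly inside. In replicate 2, 318 crossed an edge and 169 lay inside. No cluster lay wholly inside 700 gaps (85.1%) in replicate 1, 674 (81.9%) in replicate 2, and 567 (68.9%) in both. Among stretches under 30 kb these shares were higher, at 96.6%, 96.3% and 93.0%, again with no adjustment for length. The first 1 kb from the gap edge was covered at 5.95% in replicate 1 and 4.64% in replicate 2. From 5 to 10 kb inward it was 0.605% and 0.533%, and farther than 15 kb from both edges 0.325% and 0.407%. The longest empty part of a gap made up a median of 99.9% of it in replicate 1 and 100% in replicate 2. It was still at least 30 kb in 794 gaps in replicate 1 and 781 in replicate 2, and in 756 (91.9%) when both lists were used.

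The intrusions of the replicates fell in different places. They coincided in 8 gaps, over 0.98 kb in all, and only on the X near 10.1 Mb, from 10099060 to 10099161, did both overlapping clusters lie wholly inside the gap. Of the 138 clusters of replicate 1 inside gaps, 1 touched a cluster of replicate 2, and of the 169 of replicate 2, 3 touched a cluster of replicate 1. Over all clusters of the 5 arms these shares were 79.8% and 86.6%. The gaps were chosen for holding no cluster of a list made from the same libraries, so this contrast follows in part from that choice. The clusters inside gaps were short, at a median of 1508 and 1463 bp in the replicate 1 and 2 lists, against 2647 and 2540 bp over all of their clusters. Their scores had a median percentile within their list of 41.4 and 30.3. In replicate 1, 22 of the 138 had a score in the highest 25% of the list, and in replicate 2, 0 of 169 were.

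The replicates also differed in where they intruded. In replicate 1 the X was the most intruded arm by length, with 0.942% of its gap length covered. By number, it had 37 clusters inside gaps, against 39 on 3L. In replicate 2 the X was the least intruded, with 0.156% and 7 clusters. On the autosomal arms replicate 2 covered more, 0.790% against 0.555%, with 162 against 101 clusters inside. As a result 127 of the 156 gaps of the X were empty in replicate 2 and 31 in replicate 1, while on 3R the numbers were 92 and 85 of 192. Stretches under 30 kb showed the same contrast on the X, at 6.96% in replicate 1 and 1.06% in replicate 2. The difference on the X goes with the lower coverage of that chromosome in replicate 2 given above, and its part in these values was not tested.

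**Figure D3:**
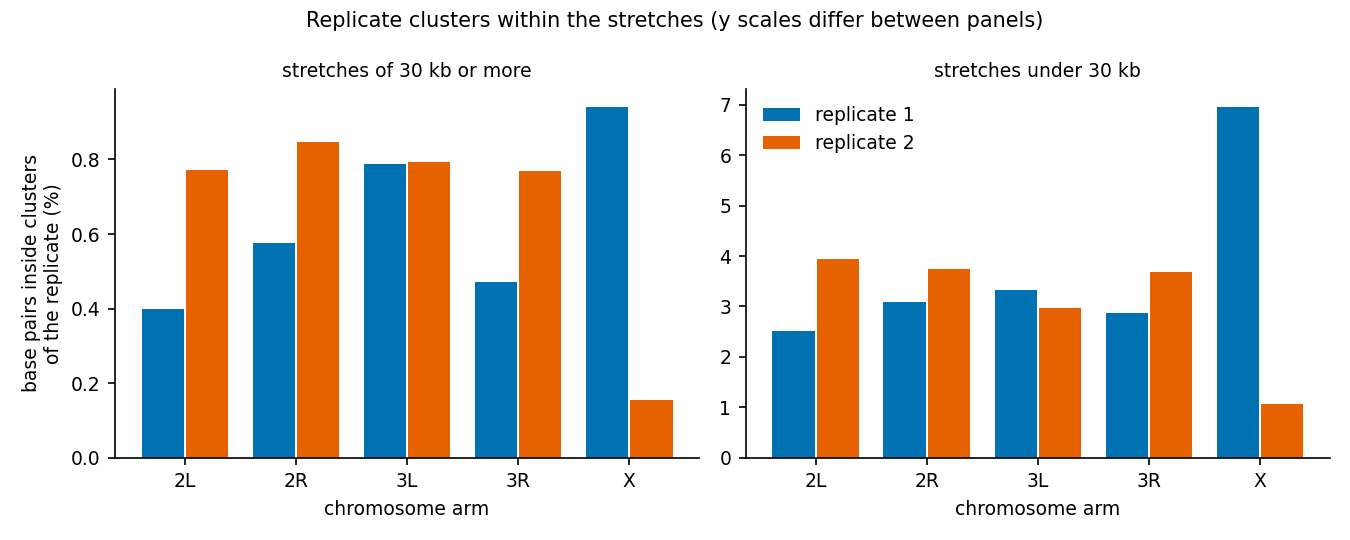
Percent of the base pairs in gaps of 30 kb or more (left) and in stretches under 30 kb (right) that lay inside clusters of replicate 1 (blue) or replicate 2 (orange), by arm, with 1 library per bar and different y scales. Every arm is below 1% in the long gaps, and the X has the highest bar for replicate 1 and the lowest for replicate 2 in both panels.

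The 3 gaps most filled by a replicate were all close to the 30 kb threshold. On the X from 13740967 to 13772719 (31.8 kb), replicate 1 had 3 clusters inside and 2 at the edges that covered 7221 bp, or 22.7%, and replicate 2 had none. On 3R from 26353981 to 26384019 (30.0 kb), replicate 2 covered 14.4% and replicate 1 only 23 bp. On 2L from 1186971 to 1217633 (30.7 kb), replicate 2 had 3 clusters inside that covered 13.8%, and replicate 1 covered 440 bp. In all, 2 gaps were covered for more than 10% by replicate 1 and 6 by replicate 2.

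The 823 gaps were bounded by 1433 clusters. Of these, 1220 had a gap on 1 side and 213 stood alone between a pair of neighbouring gaps. The sequence between neighbouring gaps thus held a single cluster in 213 of 818 cases (26.0%), 2 to 5 clusters in 201, 6 to 20 in 300 and more than 20 in 104. A typical interval between gaps was 43.6 kb long and held 5 clusters (medians). At the other extreme, 2R from 5692984 to 6459900 ran for 767 kb with 84 clusters and without a gap of 30 kb, and 3R from 951842 to 1689302 for 737.5 kb with 78 clusters. The 241 intervals of 100 kb or more held 42.9% of the 5 arms, at a length threshold unlike the 30 kb of the gaps.

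Lone clusters also strung gaps into longer sparse regions. Of the 823 gaps, 448 had no neighbour across a single cluster, 246 came in 123 pairs, 90 in 30 runs of 3, 24 in 6 runs of 4 and 15 in 3 runs of 5. The longest run of 5 spanned 428 kb of the X from 11924349 to 12352645, in which 4 clusters of 1843 to 3125 bp covered 9.92 kb. All 4 were found in both replicates, and their scores ran from 0.389 to 2.11. Another run of 5 lay near the centromeric end of the X, from 21982701 to 22381789 (399 kb), and all 4 of its lone clusters were found in replicate 1 and 2 of them in replicate 2. The remaining run of 5 was on 3L from 6259063 to 6584549 (325.5 kb), with all 4 lone clusters in both replicates. Arm 3L also had 5 of the 6 runs of 4, of which the longest ran from 23336615 to 23706733 (370 kb). Its 3 lone clusters were 1001 to 1431 bp long and covered 3.43 kb, and 1 of them was found in replicate 1 and 0 in replicate 2.

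The clusters that bound gaps had a lower median length than other clusters, and on the autosomal arms their median score was higher. Long clusters were fewer beside gaps, but the shortest were not more frequent. Of 4 equal length classes, the longest held 19.6% of clusters beside 1 gap, 3.76% of those between 2 and 26.8% of those with no gap beside them. The shortest held 24.6%, 25.8% and 25.1%. The flanking clusters had a median length of 2449 bp and a median score of 0.802. The 6096 clusters with no gap beside them had medians of 2853 bp and 0.748, and all 7529 clusters of the arms 2729 bp and 0.759. Only 3.35% of the flanking clusters were longer than 10 kb, against 6.73% of those with no gap beside them, while 16.3% were among the highest 10% by score, against 8.50%. On the X the flanking clusters scored 0.758 at the median and those with no gap beside them 0.763. On the autosomal arms together the medians were 0.823 and 0.742.

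In the whole-series list, clusters that stood alone between 2 gaps were shorter and had higher scores, by their medians, than those beside 1 gap or none. Their median length was 2359 bp and their median score 0.942, at percentile 64.1 of the list, and 55 of the 213 (25.8%) were among the highest 10%. The median score of the lone clusters was above that of clusters with no gap beside them on each arm. It was 0.904 against 0.744 on 2L, 0.835 against 0.783 on 2R, 0.980 against 0.707 on 3L, 1.08 against 0.738 on 3R and 0.849 against 0.763 on X. Lone clusters numbered from 33 on 2R to 48 on 3L. Among clusters of the X matched in replicate 2, the order was opposite, at percentile 49.8 (21 lone clusters) against 54.5. The rule for the gaps did not use the score, but the positions and scores come from the same libraries, and no test was made.

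Because longer clusters tend to have higher scores in these lists, lone clusters were also compared with others of similar length. In the whole-series list, among clusters of 2731 to 4805 bp, the 58 lone ones had a median score of 1.66 and the 1547 with no gap beside them 0.877. Among clusters of 1883 to 2729 bp these were 0.956 and 0.625, and among the shortest, of 1001 to 1881 bp, 0.500 and 0.452. Among the longest, from 4809 bp, they were 1.31 and 1.04, but only 8 lone clusters were that long. The same order was seen in each of 4 equal length classes when gaps, lengths and scores were all taken from a single replicate list. In the length class just above the median, lone clusters had a median score of 1.85 in replicate 1 and 1.58 in replicate 2, against 1.08 and 1.14 for clusters with no gap beside them. In the class just below it, the values were 1.20 against 0.891 in replicate 1 and 1.00 against 0.887 in replicate 2, a smaller difference in the latter. Without regard to length, the lone clusters of the replicate 2 list stood at percentile 50.2, against 50.0 for those with no gap beside them. In the replicate 1 list they stood at 69.1 against 48.4. Without regard to length, the difference in replicate 2 was thus small when the gaps were taken from its own list. With the gaps of the whole-series list, 144 of the 213 lone clusters were matched in replicate 2 and stood at percentile 60.2 of that replicate. Of the 6096 with no gap beside them, 4562 were matched and stood at 55.7. Unmatched clusters have no score there, and their unequal loss was not adjusted for.

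**Figure D4:**
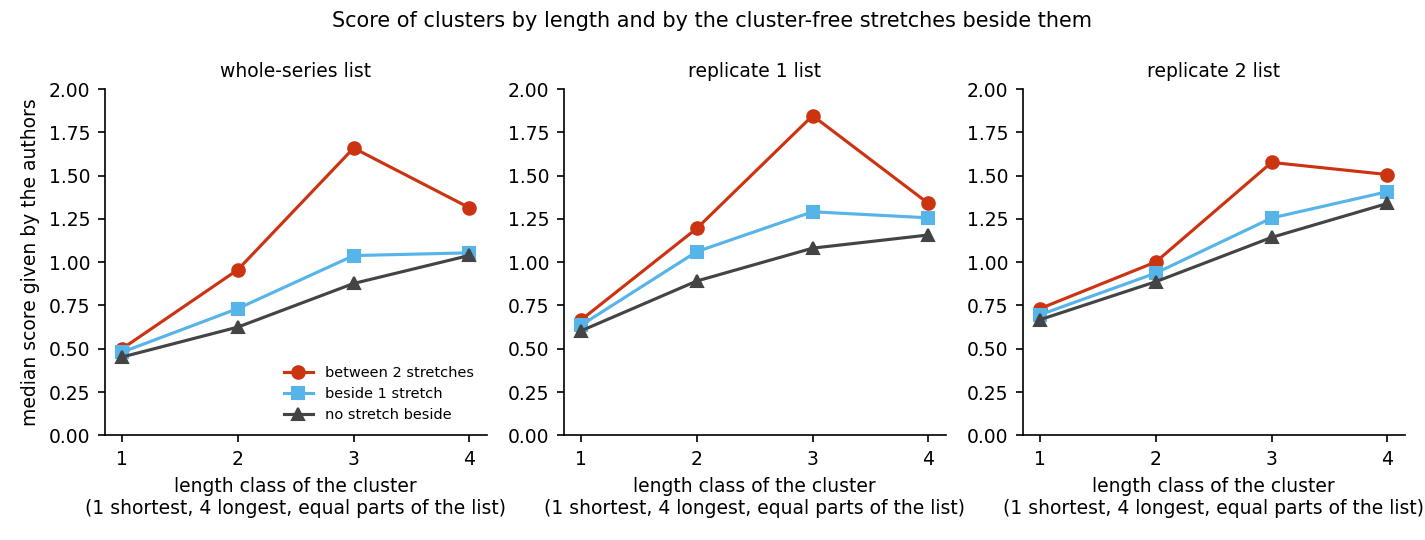
Median of the authors' score against cluster length in 4 equal classes of each list, for clusters between 2 gaps (red), beside 1 gap (blue) and with no gap beside them (black), with gaps taken from the whole-series list or from each replicate list. Red lies above black in all 4 length classes of each panel, most widely in class 3.

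The flanking clusters with the very highest scores, named first here, were found in both replicates, but not every flank with a high score was. The highest, on 2R from 15612012 to 15617826, had a score of 3.63, which was rank 2 of the 5 arms, and ranked 3 in replicate 1 and 4 in replicate 2. On 2L, the cluster from 18011180 to 18014338 had a score of 3.30 and ranks of 6 and 13 in the replicates. On 3L the cluster from 18431098 to 18434304 scored 3.25, with ranks of 5 and 23, and it closes a run of 4 gaps. The lone cluster with the highest score was on 3L from 13105574 to 13108962, with 3.03 in the whole-series list and ranks of 12 and 63. These 4 were chosen after their scores were seen. Further down by score, a lone cluster of 1001 bp on 3L, from 23379812 to 23380812 with 2.88, was not found in replicate 2. The left flank of the longest gap, with 2.65, was found in neither replicate. The longest flanking cluster was on the X from 3563156 to 3587332, at 24.2 kb, and replicate 1 covered 92.4% of it and replicate 2 85.5%.

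As a group, the flanking clusters were found in the replicates about as often as other clusters. Of the 1433, 941 or 65.7% (95% Wilson interval 63.2 to 68.1%) touched clusters of both replicates, against 66.6% of all clusters of the arms. Those touching neither were 10.4% (8.92 to 12.1%), against 9.43%. The intervals cover counting error only and treat clusters as independent. On the X, 54.0% of the flanking clusters touched both replicates and 33.9% replicate 1 only, against 57.6% and 29.1% of all clusters of the X. On 3R 72.1% of the flanking clusters touched both, against 69.9% of all clusters of that arm, so that most of this contrast was one between the arms. Both flanks were found in both replicates for 365 gaps (44.4%). For 163 gaps (19.8%) at least 1 flank was found in neither, and for 10 gaps this held for both flanks. Flanks missing from a replicate let its empty stretch run on past them. This happened at 14.1% of the 1646 gap edges in replicate 1 and 26.5% in replicate 2. The empty stretch around the midpoint of the gap was 100 kb or longer for 126 and 195 gaps. Neighbouring gaps can share such a stretch where the cluster between them is missing, and it then counts for each of them. Distinct empty stretches of 100 kb or more were fewer than this in both replicate lists. The counts are thus not comparable with the 105 gaps of that length in the whole-series list.

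The sides of a gap often differed. The score of the stronger flank was 1.72 times that of the weaker at the median, and at least 2 times in 333 gaps. Both flanks were above the median score of all clusters in 246 gaps, and both at or below it in 174. The left flank was the stronger in 419 of 823. The median score and length of the flanks varied little with the length of the gap. Median scores were 0.786 beside gaps of 30 to 50 kb, 0.838 beside gaps of 50 to 100 kb and 0.802 beside gaps of 100 kb or more, and median lengths 2423, 2429 and 2547 bp. The share of flanks found in neither replicate was lowest beside gaps of 100 kb or more, with 11 of 201. In the same order it was 11.9% (95% Wilson interval 9.84 to 14.4%), 10.1% (7.84 to 12.8%) and 5.47% (3.08 to 9.53%). The intervals of neighbouring classes overlap, and a cluster between gaps of different classes counts in each.

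Just outside the flanking cluster, coverage on the autosomal arms was below that of the whole arms, and it was close to their level from 50 kb on. On the autosomal arms the first 5 kb beyond it were covered at 17.2% ± 0.17 (SD, n = 2 replicates), against 21.8% and 21.7% over these arms in the replicate lists. From 5 to 10 kb it was 19.8% ± 0.55, from 30 to 50 kb 19.9% ± 0.0029 and from 50 to 75 kb 22.1% ± 0.62. On the X the first 5 kb were covered at 21.0% in replicate 1 and 11.1% in replicate 2, where the whole arm stood at 21.2% and 13.4%. The next 5 kb were at 21.1% and 13.7%. These distances include neighbouring gaps where there were any. On the autosomal arms, 175 of the 1159 flanking clusters stood between 2 gaps, so the sequence just beyond them was itself a gap. The lower coverage next to the flanking clusters thus follows in part from the rule. No profile around other clusters is given for comparison.

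**Figure D5:**
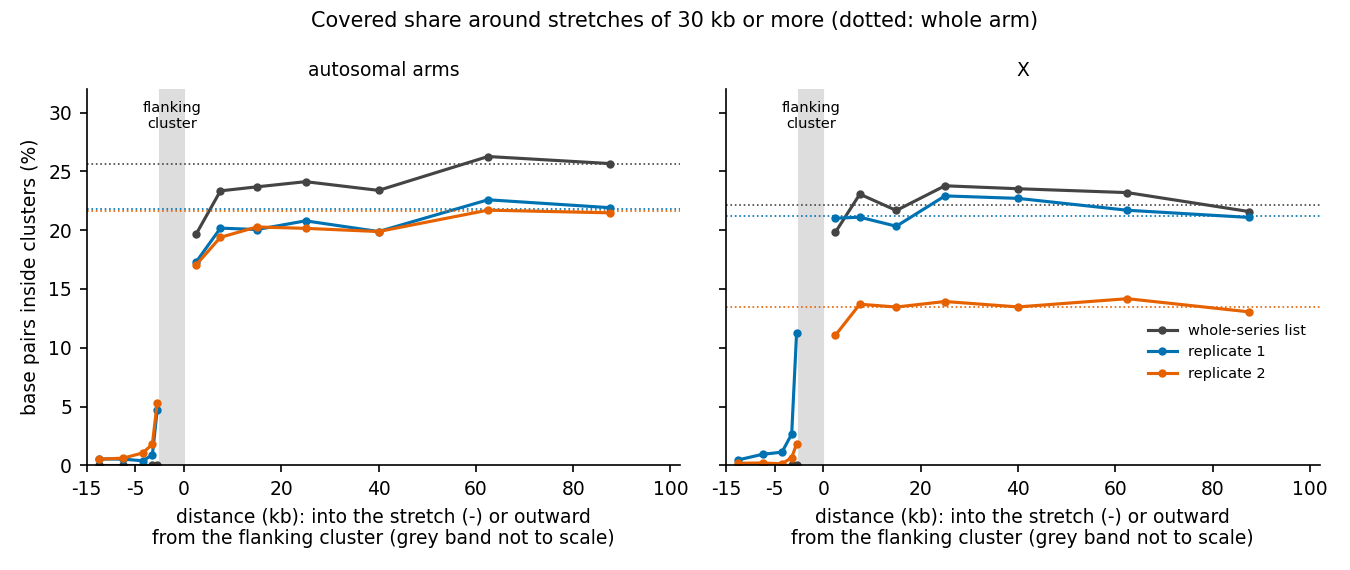
Percent of base pairs inside clusters of the whole-series list (grey), replicate 1 (blue) and replicate 2 (orange) by distance in kb, inward from the gap edge (negative) and outward from the far end of the flanking cluster, for autosomal arms and X, with dotted lines for the whole arms. Coverage is near 0 inside the gap except in the first 1 kb. Beyond the flanking cluster, 5 to 10 kb out on the autosomal arms, it reaches 19.4 to 20.2% in the replicate lists and 23.3% in the whole-series list.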

How the data were processed

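Per the labels, 2 ChIP and 2 input libraries were made. The submitters' processing notes name Bowtie 0.12.7, and the enrichment caller and its thresholds are not stated in the sources used here. The authors deposited 3 lists of enriched regions with a score each, 1 per ChIP replicate and 1 for the replicate set, on FlyBase release 5 per the file headers. Neither the unit of the deposited score nor how that combined list was made is stated. Depth is unknown.

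Clusters past an arm end were trimmed to it (1 in the whole-series list and 1 in replicate 2), and 0 neighbours overlapped in each list. Gap length counts the bases between clusters, and an overlap of 1 bp counted as touching. A replicate score is that of the cluster with the largest overlap. Gap and overlap code was tested on simulated data. The 10 longest gaps, the 2 longest per arm, the 3 most covered by a replicate and the longest runs are named. Members and rules were chosen with earlier results of these data known. Lone clusters were singled out after their values were seen. Gene names and sequences were not used here, as the gene table is that of Release 6. The software was matplotlib 3.10.9, scipy 1.17.1, pandas 2.3.3 and numpy 2.4.6 under Python 3.11.15.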

Additional observations from a re-analysis of the deposited data

How the results depend on the processing

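For 8 results, 59 alternatives were computed, and 27 moved a value beyond its spread (1.5 times for a count, the SD of the replicates or a 95% interval otherwise). No result carried a test. With a threshold of 20, 40 or 50 kb there were 1276, 578 or 411 gaps, with 51.7%, 35.2% or 28.9% of the arms and medians of 37.2, 60.0 or 70.8 kb. Gaps empty in both replicates were then 184 (14.4% of the gaps), 74 (12.8%) and 49 (11.9%), against 113 (13.7%) at 30 kb. Clusters at or above the lower quartile of the score gave 50.2% of the arms and a median of 52.3 kb, those at or above the median score 61.4% and 57.1 kb, and the union of the 3 lists 38.1% and 46.3 kb. Without clusters shorter than 1301 bp, the shortest length in the replicate lists before trimming at arm ends, the share was 45.4%. A single replicate list gave 879 to 893 gaps, 45.4 to 49.5% of the arms and medians of 49.7 to 50.7 kb. The share of the arms moved under 9 alternatives and the strict count of empty gaps under 7. Leaving out a replicate, or counting fewer of its clusters, can only keep or raise this count. It was 290 to 453 with 1 replicate left out, 559 where a replicate cluster counted only if at least 50% of it lay in the gap, and 323 for replicate clusters at or above the median score. At 50% of their own length, 62.5% of flanking clusters were found in both replicates. The score percentile of clusters between 2 gaps was 50.2 to 69.1 in single replicate lists. The alternatives for this percentile, and leaving out the 1 Mb at the centromeric ends, were chosen after seeing the data. The median score and length of flanking clusters stayed within their intervals under the 5 alternatives tried per value. No paired analysis was possible because no result here comes from a test. The unknown depth limits how many weak clusters, and so how many true interruptions of gaps, could be called.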

Other observations

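Chromosome 4 lies outside the rule. Of its 128 stretches between clusters in the whole-series list, 1 was 30 kb or longer, at 32.1 kb.

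Clusters of the whole-series list shorter than 1301 bp, the shortest length in the replicate lists before trimming at arm ends, made up 10.3% of the flanking clusters, 12.2% of those between 2 gaps and 11.2% of all clusters of the arms. Among them is the left flank of the longest gap on the X, 1033 bp long, whose score of 2.65 is at percentile 99.2 of the list although neither replicate list has a cluster there.

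Lone clusters matched in the replicates had a median score percentile of 74.1 in replicate 1 (181 matched) and 60.2 in replicate 2 (144 matched). Clusters with no gap beside them stood at 54.6 (5046 matched) and 55.7 (4562 matched). On the X the lone clusters stood at 78.9 in replicate 1 and 49.8 in replicate 2, against 63.0 and 54.5, so their order was opposite there. This difference between the replicates on the X was not tested.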
